A study of Mus musculus with 63 samples.

Results

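The genes described here encode the proteins that sort cargo at endosomes: retromer, the ESCRT complexes, the sorting nexins and the other Vps proteins. They were chosen by symbol, as protein-coding genes whose name starts with Vps, Snx or Chmp and a number, with Stam, or is Hgs. Of 55291 gene symbols in the count tables, 83 matched and 80 were annotated as protein-coding. Stambp-ps1, Stambp-ps2 and Stamos were left out on that ground. Symbols do not tell function, so the set also holds Vps72, a subunit of a chromatin remodelling complex. The 80 genes were described in groups by their known roles, which ranged from 2 retriever genes to 12 genes of the SNX-BAR family.

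RNA was sequenced from organotypic entorhino-hippocampal tissue cultures of mice, prepared at postnatal day 3 to 5 from animals of either sex and kept for at least 18 days in vitro. Cultures came from C57BL/6J mice (wildtype, Synpo+/+) or from B6.129-Synpotm1Mndl/Dllr mice (Synpo-/-), which were made to lack synaptopodin, an actin-binding protein of the spine apparatus. In lesioned cultures the entorhinal cortex was cut off with a scalpel (entorhinal cortex lesion, ECL), which removes the perforant path input, and tissue was collected 3 days later (3 dp ECL). Control cultures were not lesioned. In the regional experiment (39 libraries), each library came from the dentate gyrus (DG) or the CA3 area cut out of a single culture. It held 4 control and 7 ECL libraries of Synpo+/+ DG, 2 and 3 of Synpo+/+ CA3, 7 and 4 of Synpo-/- DG, and 6 and 6 of Synpo-/- CA3. In the co-immunoprecipitation experiment (24 libraries), lysates of 6 pooled cultures were incubated with an antibody against synaptopodin, and RNA was sequenced from the precipitate (Synpo-coIP) and from an aliquot of the same lysate (input). It held 5 pairs from control Synpo+/+ cultures, 5 from Synpo+/+ cultures at 3 dp ECL and 2 from control Synpo-/- cultures.

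Total counts ran from 14055930 to 46043990 per regional library and from 11601154 to 53682143 per library of the coIP experiment. The labels do not say whether cultures of a group came from different animals, so p-values measure the spread between these libraries. Synpo, the gene of the knockout label, had no fewer counts in regional control libraries so labelled. In control DG its mean was 22.46 CPM (counts scaled to the effective library size) in Synpo+/+ and 51.77 CPM in Synpo-/-, a log2 fold change of 1.17 ± 0.126 (SE, edgeR adjusted p = 0.000517). These are counts per gene over all its exons, so they do not show which part of the gene was transcribed, and every direction between genotypes below rests on the labels. Of the regional libraries, 2 stood apart in Prox1, a marker of dentate granule cells. Synpo+/+ DG ECL replicate 5 had 15.53 CPM against 169.6 to 216.5 in its group, and Synpo-/- CA3 control replicate 1 had 44.01 CPM against 15.63 to 18.68. In Grik4, a marker of CA3 pyramidal cells, the first had 28.16 CPM. The rest of its group had 7.657 to 12.53 and Synpo+/+ CA3 ECL 24.94 to 27.18. The second had 15.5 CPM of Grik4 against 20.38 to 28.89 in its group. Both were kept under their labels, and whether the labels match the tissue was not tested. Counts that rest on these libraries are given with and without them.

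As background, retromer (Vps26a or Vps26b, Vps29 and Vps35) takes membrane proteins out of endosomes and returns them to the Golgi apparatus or the plasma membrane. In neurons it is known for the recycling of glutamate receptors, and a mutation of VPS35 causes inherited Parkinson disease. Retriever (Vps26c, Vps35l and Vps29) does a similar task with Snx17. Sorting nexins bind endosomal lipids and bend membranes (the SNX-BAR family) or choose cargo (Snx3, Snx17, Snx27). The ESCRT complexes act in the other direction: ESCRT-0 (Hgs, Stam, Stam2) gathers ubiquitinated cargo, ESCRT-I and ESCRT-II bud the membrane inwards, ESCRT-III (the Chmp proteins) cuts the bud off, and the Vps4 ATPases take ESCRT-III apart. HOPS and CORVET tether endosomes and lysosomes, GARP and EARP tether vesicles at the Golgi apparatus and recycling endosomes, and Vps13 proteins carry lipids between membranes.

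Levels of different genes were compared as CPM per kilobase of exon, over the union of all annotated exons, and spanned about 3 orders of magnitude. In the 39 regional libraries, the highest were the ESCRT-III gene Chmp2a (231.8 ± 26.65 CPM per kb, mean ± SD), the retromer adaptor Snx3 (194.9 ± 68.9), Chmp5 (147.3 ± 23.23), the ESCRT-I gene Vps28 (104.2 ± 16.84) and Vps29 (89.76 ± 22.62). Snx2 (79.4 ± 17.12), Snx6 (62.93 ± 10.55), Chmp2b (54.22 ± 11.99), Vps26a (43.18 ± 9.747) and Vps35 (42.43 ± 6.979) made up the rest of the first 10. In this order the neighbours Chmp2a and Snx3 differed by less than the SD of Snx3, and Vps26a and Vps35 by less than the SD of either. Every one of the 80 genes had counts in some library. The lowest was Snx31 (0.1556 ± 0.06736 CPM per kb, with a median of 10 counts), which had counts in all 39 regional libraries and in 20 of the 24 of the coIP experiment. Exons shared with another annotated gene made up 67.2% of Vps25, 42.5% of Vps37b, 28.5% of Snx22 and 24% of Chmp1b, so reads of these genes are uncertain in unstranded counts.

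**Figure D1:**
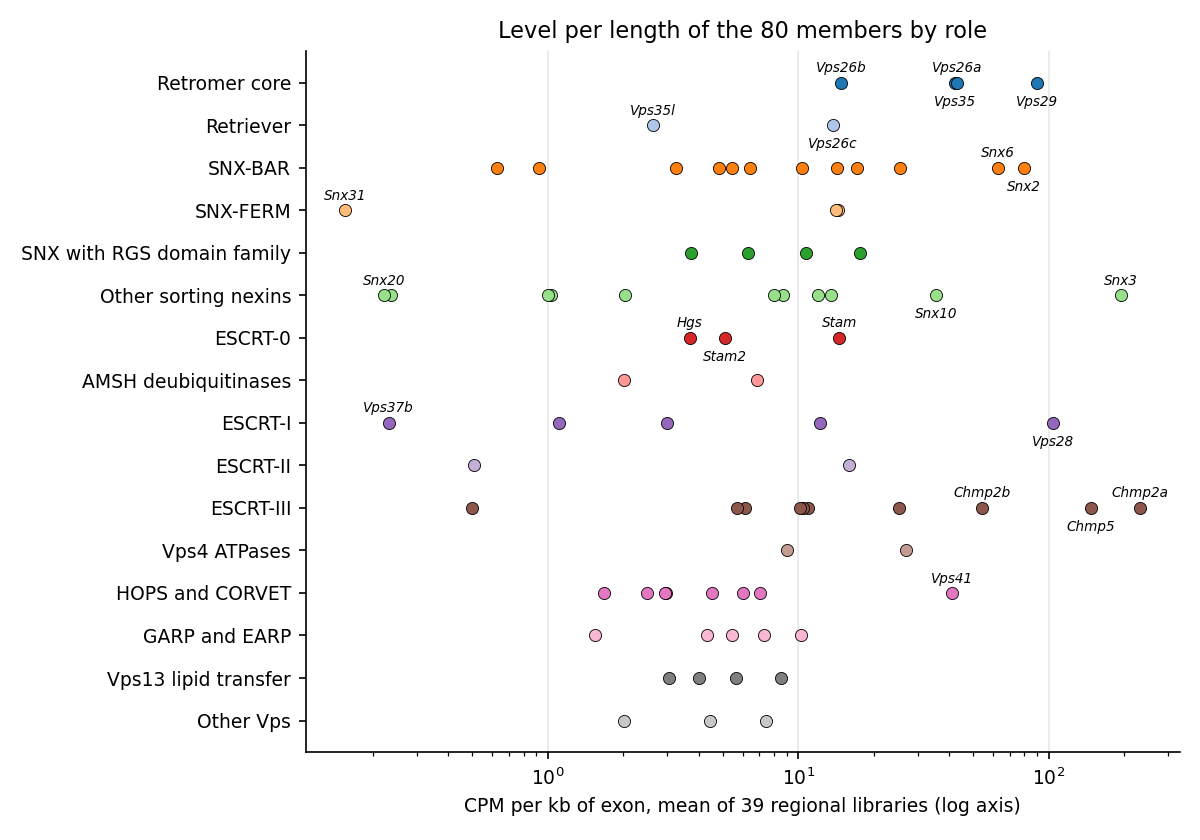
Mean level of each of the 80 genes in CPM per kb of exon over the 39 regional libraries (log axis), 1 point per gene, in rows by role. Chmp2a, Snx3, Chmp5 and Vps28 lie above 100 CPM per kb, and Snx31 is the lowest at 0.1556.

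Subunits that can stand in for each other were not equally abundant per kb of exon. The retromer subunit Vps26a exceeded its paralog Vps26b in all 39 libraries, with a median ratio of 2.96 (range 1.78 to 3.83). Chmp2a exceeded Chmp2b in all 39 (median 4.38), Stam exceeded Stam2 in all 39 (median 2.81) and Vps4a exceeded Vps4b in all 39 (median 2.9). The order of the Vps4 genes rests on the division by exon length. In CPM alone, the control DG means were 53.91 for Vps4a and 75.58 for Vps4b in Synpo+/+, and 51.43 and 76.98 in Synpo-/-. Among the SNX-BAR genes that form dimers with each other, Snx2 exceeded Snx1 and Snx6 exceeded Snx5 in all 39, with median ratios of 0.18 for Snx1 to Snx2 and 0.402 for Snx5 to Snx6. Snx6 was above its close relative Snx32 in all 39 (median 6.46). For Chmp1a and Chmp1b the order changed between libraries: Chmp1a was higher in 17 of 39, with a median ratio of 0.98. Within retromer, Vps29 exceeded Vps35 in all 39 (median 2.05), and Hgs (3.685 ± 0.6729 CPM per kb) was lower than its ESCRT-0 partner Stam (14.58 ± 1.687).

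The first question was how the lesion changed these genes in the DG, which like CA3 receives the perforant path that was cut. In Synpo+/+ DG, 12 of the 59 members with a mean normalized count over 300 were higher at 3 dp ECL and 0 were lower (edgeR, adjusted p under 0.05, which is what called means here). Of all genes over the same limit, 15% were called higher and 1.41% lower. Upward shifts were not particular to these genes: 54 of the 59 had a positive fold change, with a median log2 fold change of 0.215 against 0.198 for all genes over the limit. The called genes were Snx17, both retriever genes, 4 SNX-BAR genes (Snx1, Snx5, Snx6 and Snx32), Vps28, Vps36, Chmp1a, Vps16 and Vps33a. No gene of the retromer core was among them. In all 12 called genes the groups did not overlap, as in 75.1% of all genes called.

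Snx17, the sorting nexin that hands cargo to retriever (ENSMUSG00000029146.14, chr5:31193227-31199143, GRCm38), had 32.7, 24.3, 29.1 and 26.96 CPM in the 4 control DG libraries and 41.0 to 61.0 CPM (median 46.2) in the 7 ECL libraries. All ECL libraries lay above all controls, and the log2 fold change was 0.75 ± 0.119 (adjusted p = 0.00139). Of the retriever genes, Vps26c (ENSMUSG00000022898.13, chr16:94497783-94526830) had 41.5, 27.9, 35.6 and 36.2 CPM in control DG against 43.1 to 69.4 (median 56.0) after lesion, a log2 fold change of 0.64 ± 0.135 (adjusted p = 0.00964). The other, Vps35l (ENSMUSG00000030982.19, chr7:118740226-118842966), had 35.0, 27.2, 29.7 and 28.4 CPM against 35.9 to 49.5 (median 40.0), a log2 fold change of 0.45 ± 0.11 (adjusted p = 0.0198). Their groups did not overlap either. The subunit that retriever shares with retromer, Vps29, had 394, 301, 466 and 448 CPM against 410 to 842 (median 490), with groups that overlapped and a log2 fold change of 0.37 (adjusted p = 0.165).

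Of the SNX-BAR genes, which coat endosomal tubules, Snx5 (ENSMUSG00000027423.15, chr2:144250123-144270906) had 91.1, 64.8, 81.8 and 80.4 CPM in control DG and 105 to 125 CPM (median 116) after lesion, a log2 fold change of 0.53 ± 0.108 (adjusted p = 0.00727). Snx6 had 154, 122, 150 and 149 CPM against 164 to 238 (median 203), with a log2 fold change of 0.48 ± 0.118 (adjusted p = 0.0197). Snx1 had 52.0, 40.5, 52.1 and 48.8 CPM against 54.9 to 87.2 (median 61.5), with 0.42 ± 0.123 (adjusted p = 0.0375). In each of the 3 genes, the 7 ECL libraries lay above the 4 controls. Snx32, the member of this family closest to Snx6, had 28.9, 20.9, 25.8 and 21.8 CPM against 29.7 to 57.7 (median 32.0), with 0.54 ± 0.171 (adjusted p = 0.0497). Its highest value came from replicate 5, which stands apart in Prox1.

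The ESCRT genes called in Synpo+/+ DG were Vps28, Vps36 and Chmp1a. Vps28 of ESCRT-I had 194, 150, 190 and 171 CPM in controls against 211 to 311 (median 251) after lesion, with a log2 fold change of 0.48 ± 0.125 (adjusted p = 0.0253). Vps36, the ubiquitin-binding subunit of ESCRT-II, had 50.2, 40.7, 50.5 and 43.2 CPM against 54.7 to 81.5 (median 64.2), with 0.47 ± 0.111 (adjusted p = 0.0175). Chmp1a (ENSMUSG00000000743.9, chr8:123204264-123212763) showed the largest fold among the 12, at 0.85 ± 0.223 (adjusted p = 0.0259). It had 22.6, 13.5, 20.05 and 20.2 CPM against 26.2 to 62.6 (median 28.9), and the 2 highest ECL libraries lay at 43.5 and 62.6 CPM. The HOPS and CORVET genes Vps33a (25.6, 22.2, 25.8 and 21.97 CPM against 27.9 to 39.3, median 31.9) and Vps16 (23.2, 20.01, 20.3 and 19.7 CPM against 23.4 to 31.5, median 27.7) also did not overlap between groups. Their log2 fold changes were 0.41 ± 0.109 (adjusted p = 0.026) and 0.36 ± 0.107 (adjusted p = 0.0414).

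The retromer core and ESCRT-0 were not called in Synpo+/+ DG. Vps26a had 97.9, 64.4, 102 and 98.8 CPM in controls and 75.4 to 163 (median 124) after lesion, with a log2 fold change of 0.42 (adjusted p = 0.111). Vps35 had 328, 277, 329 and 315 CPM against 301 to 484 (median 368), with 0.21 (adjusted p = 0.254). Vps26b had 70.5, 62.5, 65.6 and 65.7 CPM against 62.6 to 83.8 (median 71.5), with 0.10 (adjusted p = 0.484). In all 3 genes the groups overlapped. The log2 fold change was 0.08 for Stam2 (adjusted p = 0.627) and 0.03 for Stam (adjusted p = 0.873). Hgs, at a mean normalized count of 255.2, lay under the limit and had 0.34 (adjusted p = 0.0972).

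**Figure D2:**
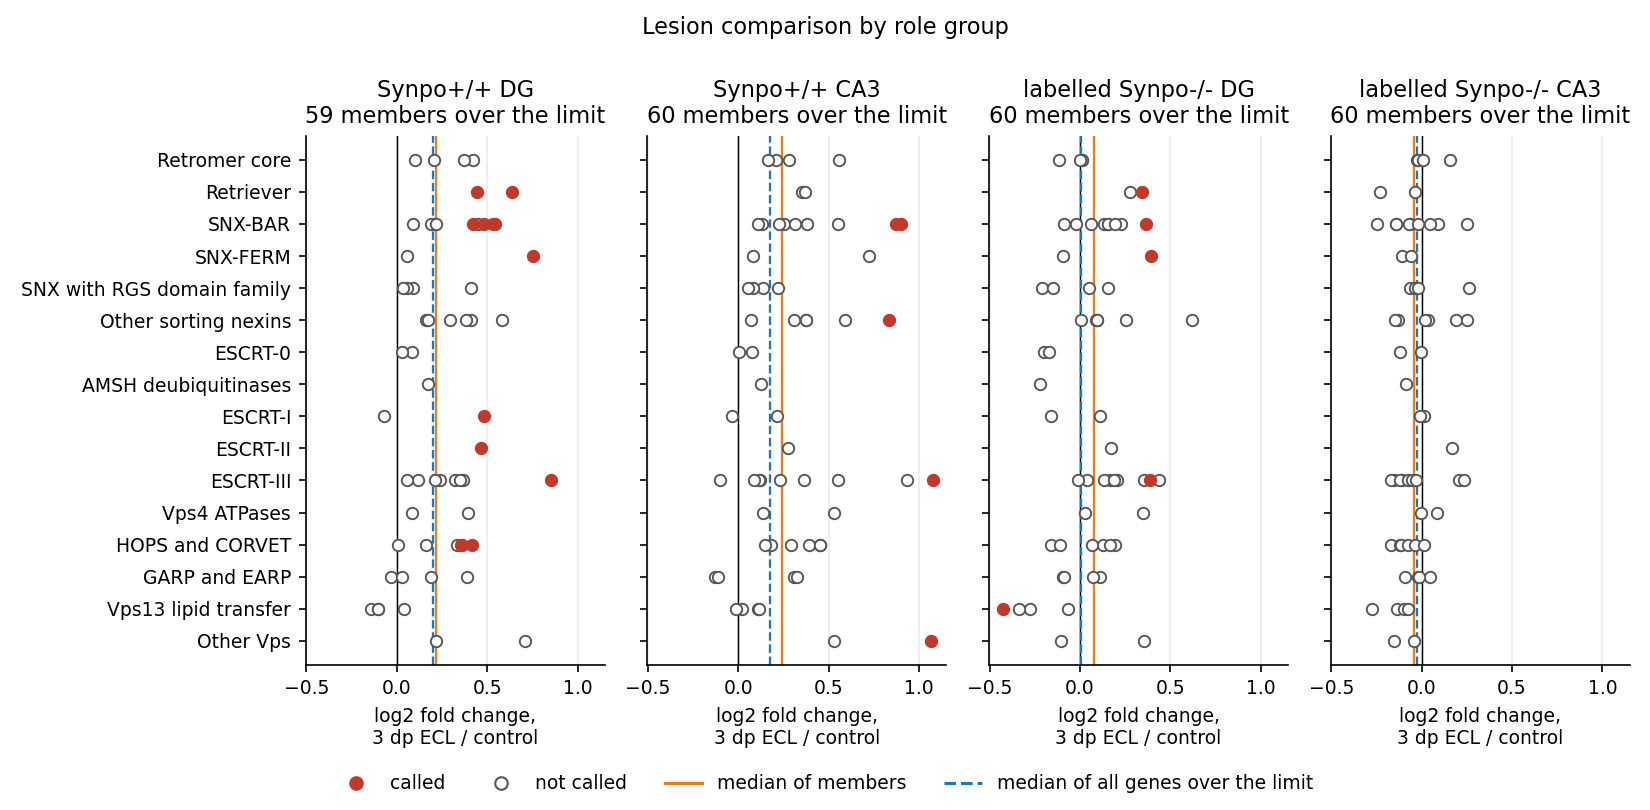
Log2 fold change (3 dp ECL over control, x axis) of each member over the count limit, in rows by role and panels by region and labelled genotype. Filled points were called, the orange line is the members' median and the dashed blue line the median of all genes over the limit. The 12 called genes of Synpo+/+ DG lie right of 0, and in Synpo-/- CA3 0 were called.

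The upstream sequence of these genes was read because many lysosomal genes carry a palindrome around CACGTG, known as the CLEAR element, near their start site. Windows from 250 bases before to 50 bases after the start site were taken from RefSeq (GRCm38.p6), where 54 of the 80 genes had an entry. CACGTG, which reads the same on both strands, was found in 8 of the 54 genes (14.8%), in 8.09% of all 27025 genes and in 7.15% of all 32851 windows of 300 bases. A longer form, CACGTG with GT before it and AC after it, was found in 3 of them (5.56%), in 0.37% of all genes and in 0.326% of all windows. The 3 were Vps16, Vps33a and Vps26a. Of the 12 genes called in Synpo+/+ DG, 9 had an entry, of which 3 held CACGTG (Snx5, Vps16 and Vps33a) and 2 the longer form. Stretches of 30 bases around the match are shown for these 3 genes and for Vps26a, on the strand of each gene and with the match in capitals. A match is a string of letters and does not show that a factor binds.
Vps16, chr2:130424290-130424319, plus strand: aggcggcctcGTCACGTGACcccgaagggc
Vps33a, chr5:123573010-123573039, minus strand: tgaacgtcccGTCACGTGACgcaggcggcg
Snx5, chr2:144270605-144270634, minus strand: gcactgggggagCACGTGgcgtgccgctcg
Vps26a, chr10:62486970-62486999, minus strand: cgcacggctcGTCACGTGACaactagctct

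In the annotation deposited with the counts, the Vps16 stretch overlaps an exon of Pced1a on the opposite strand, the Vps33a stretch overlaps an annotated UTR of Vps33a, the Snx5 stretch lies in an intron of Snx5, and the Vps26a stretch lies outside annotated genes. Further matches in the windows of Vps26a, in an annotated UTR of that gene, and of Vps33a are not shown. Of these 4 genes, Vps16, Vps33a and Snx5 were called in Synpo+/+ DG, and Vps26a, with the values above, was not.

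Leaving out single libraries moved the count of 12. Without control replicate 2 or 4 it was 3, and without replicate 3 it was 4. Without ECL replicate 4 it was 6. Without ECL replicate 5, the library that stands apart in Prox1, all 12 were still called. Snx17, Snx5 and Vps26c were called under each of the 17 alternatives run. Marker genes of glia moved with the lesion in the same libraries. The summed level of 13 microglial markers was 811.4 to 1188 CPM in control DG and 1900 to 2436 CPM after lesion, with 12 of the 12 over the limit called higher. That of 8 astrocyte markers was 4463 to 5227 against 6984 to 9045 CPM, with 6 of 8 called higher. The part of these cells in the values above was not tested, and in bulk tissue fewer cells of a type and less RNA per cell cannot be told apart.

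Among 46 genes that work with these proteins but are not members, 38 were over the limit in Synpo+/+ DG. Of the 38, 7 were called higher and 0 lower, against 15% and 1.41% of all genes over the limit. Of the 7, 4 encode subunits of the CCC complex, the partner of retriever: Commd9 (log2 fold change 0.70), Commd7 (0.73), Commd4 (0.53) and Commd2 (0.52). The others were the WASH subunit Washc2 (0.41), the ESCRT-III-like Ist1 (0.40) and the sorting receptor Sorl1 (0.36), which retromer carries. The median of the 38 partner genes was 0.263, against 0.198 for all genes over the limit.

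In Synpo+/+ CA3, 5 of 60 members were called higher at 3 dp ECL and 0 lower, against 3.65% and 0.149% of all genes over the limit. The controls had 14208728 to 16843281 counts and the ECL libraries 20712170 to 34071797, so depth and lesion cannot be told apart here. Snx7, a SNX-BAR protein of autophagy, had 30.0 and 25.5 CPM in the 2 controls and 51.4, 56.0 and 59.8 CPM after lesion, with a log2 fold change of 0.90 ± 0.136 (adjusted p = 0.027). Snx3 had 212 and 215 CPM against 359, 378 and 493, with 0.83 ± 0.143 (adjusted p = 0.0312). Chmp1a had 19.2 and 28.9 CPM against 42.9, 51.5 and 69.1, with 1.08 ± 0.217 (adjusted p = 0.0423). Snx32 (25.0 and 25.5 CPM against 40.2, 48.3 and 60.4) and the chromatin gene Vps72 (8.28 and 11.1 CPM against 19.3, 20.3 and 26.2) were the other two, with 0.87 ± 0.167 (adjusted p = 0.04) and 1.07 ± 0.191 (adjusted p = 0.0346). In all 5 the groups did not overlap, nor did they in 100% of all genes called here.

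Snx17 had 26.4 and 37.6 CPM in control CA3 against 50.5, 53.5 and 66.5 after lesion, and its log2 fold change of 0.72 missed the threshold (adjusted p = 0.0621). In the retromer core, the log2 fold change was 0.56 for Vps26a (adjusted p = 0.113), 0.28 for Vps29 (adjusted p = 0.26), 0.21 for Vps26b (adjusted p = 0.38) and 0.16 for Vps35 (adjusted p = 0.415). Stam had 0.08 and Stam2 0.0011, while Hgs had 0.40 under the limit. Of the 5 called genes, Chmp1a and Snx32 were also called in Synpo+/+ DG, which is 40% of the CA3 list and 16.7% of the DG list. The members' median was 0.241 against 0.175 for all genes over the limit. With 2 controls the count was unstable: without ECL replicate 1 or 2 it was 0, and in a fit of all 4 CA3 groups it was 0. Of 12 microglial markers over the limit, 1 was called higher (summed level 867.8 to 1536 CPM in controls and 1706 to 2277 after lesion). Of the partner genes, 2 of 38 were called higher (3.65% of all genes over the limit), Tsg101 of ESCRT-I (0.71) and Snf8 of ESCRT-II (0.66).

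In the DG libraries labelled Synpo-/-, 4 of 60 members were called higher at 3 dp ECL and 1 lower, against 7.48% and 5.91% of all genes over the limit. Snx17 had 30.1 to 44.3 CPM (median 32.5) in the 7 controls and 48.0, 45.8, 48.2 and 50.9 CPM after lesion, with a log2 fold change of 0.39 ± 0.111 (adjusted p = 0.0368). Snx5 had 82.3 to 115 CPM (median 96.5) against 121, 117, 137 and 143, with 0.36 ± 0.103 (adjusted p = 0.0377). Vps35l had 28.6 to 39.6 CPM (median 35.7) against 52.4, 41.7, 43.1 and 45.9, with 0.34 ± 0.104 (adjusted p = 0.0494). These 3 genes, all of them tied to endosomal recycling, were also called in Synpo+/+ DG, 75% of this higher list and 25% of that one. The fourth, Chmp1b, had 17.9 to 25.4 CPM (median 22.1) against 28.0, 26.0, 32.2 and 33.3, with 0.39 ± 0.112 (adjusted p = 0.0408). The list depends on the count limit. Under it, the SNX-BAR genes Snx9 (0.47, adjusted p = 0.0112) and Snx33 (0.61, adjusted p = 0.0456) were also higher here. Both were higher in Synpo+/+ DG as well (0.55, adjusted p = 0.0355, and 0.66, adjusted p = 0.0247).

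The gene called lower was Vps13a, a lipid transfer protein at membrane contacts. It had 86.7 to 113 CPM (median 97.4) in controls and 69.8, 77.1, 84.8 and 73.3 CPM after lesion, a log2 fold change of -0.43 ± 0.096 (adjusted p = 0.0105). Its relatives Vps13c (-0.34, adjusted p = 0.0612) and Vps13b (-0.28, adjusted p = 0.0569) missed the threshold. In all 5 called genes the groups did not overlap (70.8% of all genes called), but the calls depended on the scaling: with RLE size factors 0 were called higher and 2 lower. The retromer core lay near 0, with 0.01 for Vps26a, 0.01 for Vps29, -0.0025 for Vps26b and -0.11 for Vps35, and Stam (-0.20, adjusted p = 0.215), Stam2 (-0.17) and Hgs (0.02) were not called. The members' median was 0.0795, and that of all genes over the limit 0.00705. The summed level of the microglial markers was 979.9 to 2043 CPM in controls and 2045 to 2575 CPM after lesion, with 9 of 12 called higher. Of 38 partner genes over the limit, 0 were called higher and 1 lower, Zfyve9 (-0.31), against 7.48% and 5.91% of all genes.

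In the CA3 libraries labelled Synpo-/-, 0 of 60 members were called by edgeR, against 0.0608% of all genes over the limit called higher and 0.0486% lower. DESeq2 also called 0, and 3 of 79 members tested (3.8%) had an unadjusted p under 0.05, against 7.27% of all genes tested. Snx17 had 44.0 to 57.4 CPM (median 49.1) in controls and 29.8 to 54.7 CPM (median 47.5) after lesion, with a log2 fold change of -0.11. Vps29 had 535 to 716 CPM (median 621) against 401 to 795 (median 751) and a log2 fold change of 0.16, with an adjusted p of 0.854. The lowest values after lesion in both genes came from ECL replicate 6. The log2 fold change was 0.01 for Vps26a, -0.02 for both Vps26b and Vps35, -0.12 for Stam, -0.0015 for Stam2 and -0.03 for Hgs.

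**Figure D3:**
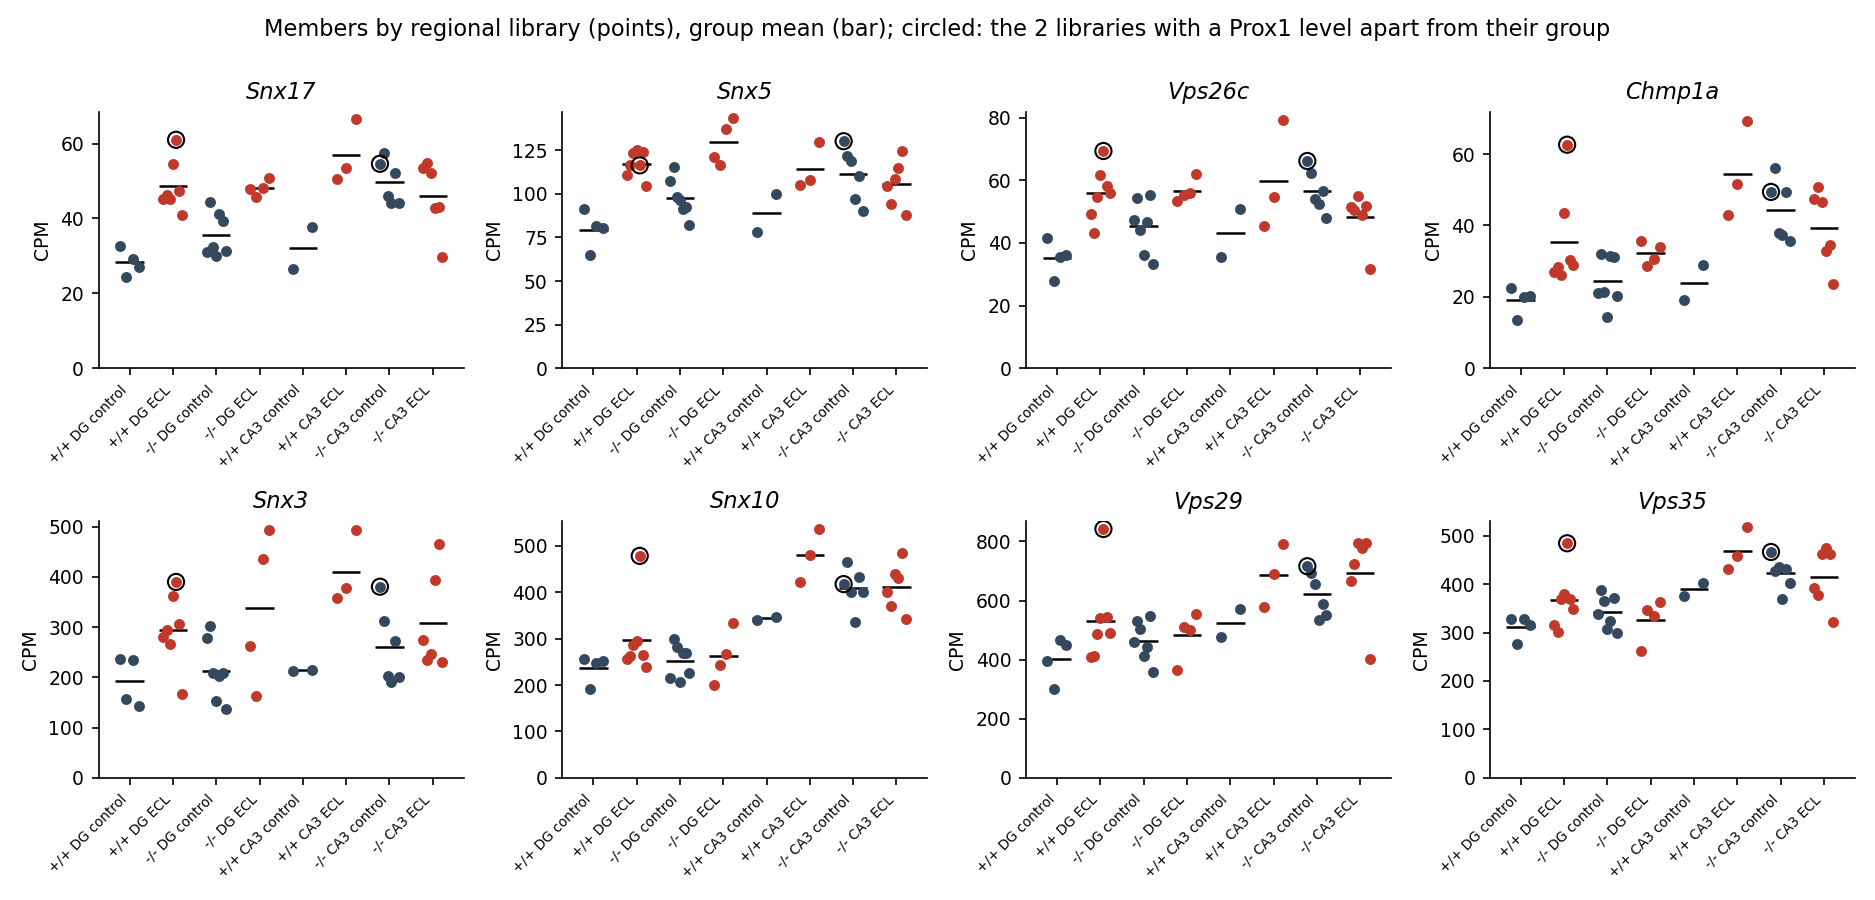
CPM of 8 genes in each of the 39 regional libraries (points: blue control, red 3 dp ECL; black bars: group means), by labelled genotype and region. Circles mark the 2 libraries that stand apart in Prox1. For Snx17, the 7 ECL libraries of Synpo+/+ DG (41.0 to 61.0 CPM) lie above the 4 controls, whereas for Vps35 these groups overlap.

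Whether the lesion acted differently by genotype was tested as an interaction. In DG 0 of 60 members over the limit were called by edgeR or DESeq2, and 12 of all 80 (15%) had an unadjusted p under 0.05, against 10.4% of all genes tested. In CA3 0 of 60 were called by edgeR and 3 by DESeq2, and 18 of all 80 (22.5%) had an unadjusted p under 0.05, against 17.1% of all genes tested. Of all genes over the limit, 0% were called in either. Over the limit in CA3, the differences furthest from 0 were those of Chmp1a, with a log2 lesion effect that differed by -1.28 in Synpo-/- (95% interval -1.965 to -0.589, adjusted p = 0.138), Vps72 (-1.25, adjusted p = 0.194), Snx32 (-1.15, adjusted p = 0.145) and Chmp6 (-1.09, adjusted p = 0.143). Snx17 had -0.86 (adjusted p = 0.149). In DG, Snx17 had -0.40 (-0.751 to -0.045, adjusted p = 0.478).

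Between control cultures of the labelled genotypes, 0 members were called by edgeR in either region. In CA3, 0.0127% of all genes over the limit were called higher in Synpo-/- and 0% lower. Of all 80 members 19 (23.8%) had an unadjusted p under 0.05, against 16.4% of all genes tested, and DESeq2 called 5 of the 60 over the limit. The smallest adjusted p was that of Snx32 (log2 fold change 0.86 ± 0.16, adjusted p = 0.0664), with 25.0 and 25.5 CPM in Synpo+/+ and 42.1 to 62.2 CPM in Synpo-/-. Chmp1a followed the same order, with 0.82 ± 0.199 (adjusted p = 0.109). The same Synpo+/+ CA3 control libraries served in the lesion comparison and the interaction of CA3, so those results and these are not independent. In DG, 0.0369% of all genes were called higher and 0% lower. Of all 80 members 8 (10%) had an unadjusted p under 0.05, against 15.5% of all genes tested. DESeq2 called 0 of 58, and the smallest adjusted p was 0.217. Retromer genes differed by 0.11 (Vps35) to 0.30 (Vps26a) in DG and by 0.06 (Vps35) to 0.42 (Vps26a) in CA3.

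The 2 regions were then compared in control cultures. In the libraries labelled Synpo-/-, with 7 DG and 6 CA3 libraries, 2 of 60 members were higher in DG and 15 lower, against 15.6% and 24% of all genes over the limit. Snx10, an endosomal sorting nexin, had 207 to 300 CPM (median 269) in DG and 335 to 465 CPM (median 409) in CA3, a log2 fold change of -0.59 ± 0.0886 (adjusted p = 5.62e-05). It was the single member called in Synpo+/+, where DG had 256, 191, 248 and 252 CPM and CA3 341 and 347 CPM (-0.52 ± 0.144, adjusted p = 0.0487). In that comparison 0 of 56 members were called higher and 1 lower, against 3.85% and 6.53% of all genes. The genes higher in DG were Stam2 of ESCRT-0 (32.4 to 39.9 CPM against 23.5 to 30.2, log2 fold change 0.54, adjusted p = 8.78e-05) and Snx25, which carries an RGS domain (27.9 to 31.3 CPM against 18.0 to 27.2, 0.58, adjusted p = 8.26e-05). For these 3 genes the regions did not overlap.

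Other members lower in Synpo-/- DG than in CA3 were Chmp1a (-0.75, adjusted p = 0.00123), Snx32 (-0.55, adjusted p = 0.000704), Vps13d (-0.34, adjusted p = 0.00223), the HOPS gene Vps41 (-0.41, adjusted p = 0.00314) and Snx17 (-0.37, adjusted p = 0.00703). Of the 17 called, 10 (58.8%) did not overlap between regions, as did 45.8% of all genes called. Retromer members had -0.32 for Vps29 (adjusted p = 0.0222), -0.20 for Vps35, -0.15 for Vps26a and -0.04 for Vps26b. Stam (-0.09) and Hgs (-0.16) were not called. In Synpo+/+, Vps29 had -0.37 (adjusted p = 0.279), Vps35 -0.30, Vps26a -0.10, Vps26b -0.06, Stam2 0.28, Stam -0.08 and Hgs 0.12. Without Synpo-/- CA3 control replicate 1, which stands apart in Prox1, 11 of the 17 were called. Chmp6, Snx12, Snx24, Vps29, Vps53 and Vps8 were then not. The regions differ in cell types too. In Synpo-/-, oligodendrocyte markers (7 of 7 over the limit) and CA3 pyramidal markers (4 of 4) were lower in DG and granule cell markers (4 of 4) higher. In Synpo+/+ these were 5 of 7, 2 of 3 and 3 of 3. The part of these cell types in the values above cannot be told apart from the region. Of 37 partner genes in Synpo-/-, 10 were lower in DG and 0 higher, against 24% and 15.6% of all genes over the limit. Among the 10 were Sorcs3 (-0.76), Ankrd27 (-0.68), Becn1 (-0.63), Sort1 (-0.49) and Rab7 (-0.46). In Synpo+/+, 2 of 37 were lower, Sorcs3 (-0.69) and Sort1 (-0.66), and 0 higher, against 6.53% and 3.85% of all genes.

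In the input of the coIP experiment, which holds whole cultures, the lesion gave another list. Of 79 members tested, 0 were called higher at 3 dp ECL and 6 lower, against 2.45% and 3.16% of all genes. Snx7 had 24.7, 30.5, 20.8, 18.8 and 19.9 CPM in control inputs and 12.6, 11.03, 12.9, 14.9 and 18.3 CPM after lesion, with groups that did not overlap and a log2 fold change of -0.72 ± 0.159 (adjusted p = 0.0183). In Synpo+/+ CA3 the same gene was higher after lesion. Chmp2b had 91.0, 90.9, 80, 73.8 and 55.0 CPM against 32.2, 32.8, 34.02, 43.9 and 67.3, with -0.90 ± 0.201 (adjusted p = 0.0198) and an overlap of the groups. Vps4a (81.8, 91.6, 84.3, 80.7 and 70.8 CPM against 45.4, 50.2, 49.1, 66.2 and 71.1) overlapped as well, with -0.54 ± 0.127 (adjusted p = 0.0244). The others were Snx13 (-0.41, adjusted p = 0.0243), Snx16 (-0.71, adjusted p = 0.0411) and Chmp7 (-0.37, adjusted p = 0.0412). In 3 of the 6 called genes the groups did not overlap (67.9% of all genes called).

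Retromer and ESCRT-0 genes were not called in the input. Vps26a had 0.13, Vps35 0.11, Vps29 -0.03, Vps26b -0.03, Stam 0.22 (adjusted p = 0.0885), Stam2 0.07 and Hgs -0.25. The count of 6 rested on single libraries: it was 0 without ECL replicate 2 or 3 or without control replicate 2, and 9 without ECL replicate 5. Microglial markers had a summed level of 1479 to 2269 CPM in control inputs and 1883 to 3261 CPM after lesion, with 5 of 13 called higher. Of 45 partner genes 1 was called higher, Commd8 (0.28), and 1 lower, Mvb12a (-0.99), against 2.45% and 3.16% of all genes.

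The coIP was compared with input to ask which transcripts were recovered with synaptopodin. In control Synpo+/+ cultures, 20 of 79 members were higher in the coIP and 30 lower, against 29.6% and 25.5% of all genes tested. Unless the block is named, coIP fits did not pair the input and coIP of a lysate. The 4 Vps13 genes were all higher, and 5 of 8 HOPS and CORVET genes were higher and 1 lower. By contrast, 7 of 10 ESCRT-III genes, 7 of the 11 other sorting nexins, both ESCRT-II genes, both Vps4 genes and 2 of 4 retromer genes were lower. Of the 50 called, 40 (80%) did not overlap between input and coIP, as did 70.2% of all genes called. The members' median was -0.11 against 0.044 for all genes tested. Synpo itself was higher in the coIP, with a log2 fold change of 0.468 (adjusted p = 0.0107).

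Within retromer the subunits were recovered unequally. Vps29 (ENSMUSG00000029462.18, chr5:122354369-122364984) had 686, 579, 596, 588 and 542 CPM in input and 262, 315, 226, 232 and 283 CPM in the coIP, a log2 fold change of -1.16 ± 0.102 (adjusted p = 6.85e-07). Vps26a (ENSMUSG00000020078.16, chr10:62455235-62486805) had 252, 200, 232, 232 and 230 CPM in input and 121, 151, 102, 116 and 122 in the coIP, with -0.89 ± 0.103 (adjusted p = 5.86e-06). For both genes every coIP library lay below every input. Vps35 (ENSMUSG00000031696.9, chr8:85260392-85299802), the subunit that holds the complex together, had 471, 395, 483, 438 and 457 CPM in input and 480, 419, 404, 357 and 432 in the coIP. These overlapped, and its log2 fold change was -0.08 (95% interval -0.276 to 0.111, adjusted p = 0.46). Vps26b (ENSMUSG00000031988.10, chr9:27007771-27030065) had 68.3, 62.8, 74.0, 71.5 and 63.6 CPM against 65.9, 60.8, 64.1, 56.9 and 57.5, with -0.14 (adjusted p = 0.182). In the same 5 lysates the paralogs Vps26a and Vps26b thus had different coIP to input ratios, -1.19 to -0.41 on the log2 scale for Vps26a and -0.33 to -0.05 for Vps26b.

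**Figure D4:**
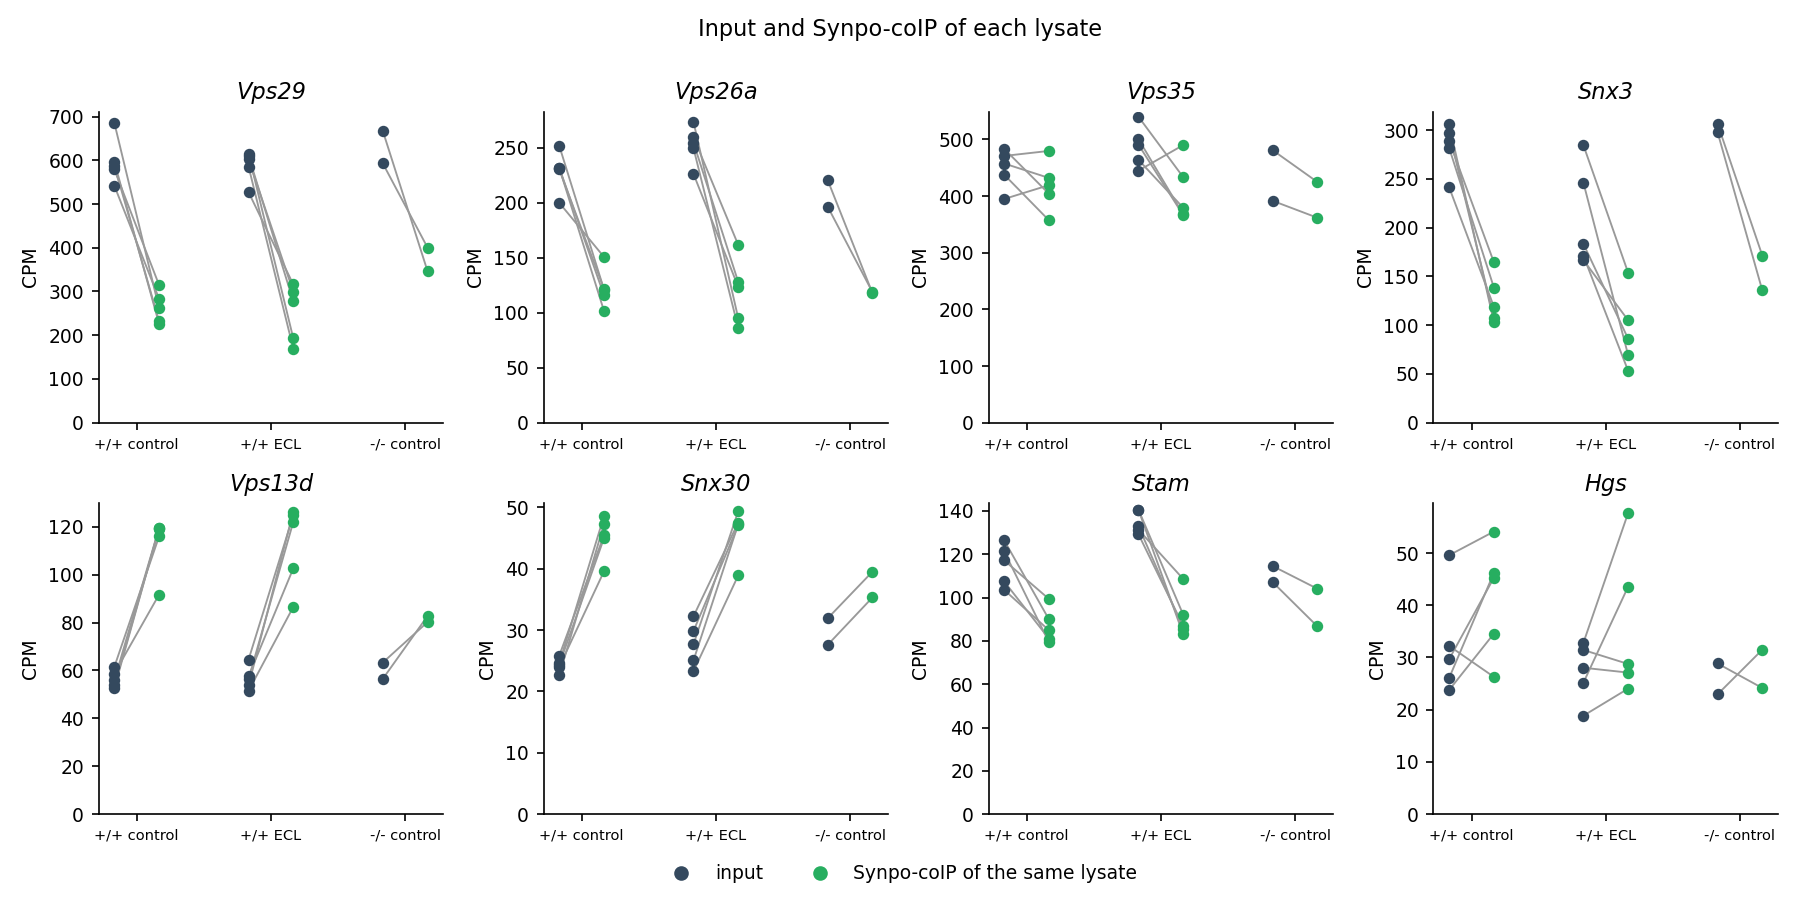
CPM of 8 genes in input (blue) and Synpo-coIP (green), with a line joining the 2 libraries of each lysate, for 5 Synpo+/+ control, 5 Synpo+/+ 3 dp ECL and 2 Synpo-/- control lysates. Vps29, Vps26a and Snx3 fall in every lysate and Vps13d and Snx30 rise, while the lines of Vps35 and Hgs go both ways.

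Other sorting nexins were also lower. Snx3 had 306, 289, 297, 282 and 241 CPM in input and 103, 165, 108, 138 and 119 in the coIP (-1.14 ± 0.122, adjusted p = 2.97e-06), and its relative Snx12 had -1.10. Snx10 had 365, 326, 342, 339 and 357 CPM against 161, 180, 136, 149 and 162 (-1.11 ± 0.0849, adjusted p = 3.25e-07). The annotated exons of Snx10 sum to 9300 bp. Among ESCRT genes, Chmp2a had 364, 297, 282, 277 and 242 CPM against 160, 168, 126, 143 and 143 (-0.97, adjusted p = 5.49e-06). Stam had 117, 104, 121, 107 and 126 CPM against 99.3, 84.9, 79.4, 81.0 and 89.9 (-0.39, adjusted p = 0.00221), and Stam2 had -0.11 (adjusted p = 0.369). Hgs had 23.8, 32.2, 26.1, 29.7 and 49.6 CPM against 34.6, 26.3, 46.2, 45.3 and 54.1, with 0.37 (adjusted p = 0.137). With the lysate as a block, Hgs was called at 0.38 (adjusted p = 0.0137). The deubiquitinase Stambp, which removes ubiquitin from ESCRT cargo, had 92.0, 76.0, 79.6, 77.8 and 70.5 CPM against 52.3, 39.4, 32.2, 38.6 and 38.96, with -0.95 (adjusted p = 1.2e-05).

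Of the genes higher in the coIP, Vps13d (ENSMUSG00000020220.16, chr4:144972622-145195005) had the largest log2 fold change, with 52.6, 58.7, 53.7, 55.8 and 61.5 CPM in input and 119, 91.6, 119, 119 and 116 in the coIP (1.02 ± 0.0947, adjusted p = 9.61e-07). Vps13c, Vps13b and Vps13a had 0.86, 0.76 and 0.67. For all 4 the groups did not overlap. Snx30, a SNX-BAR partner of Snx4, had 25.9, 24.03, 22.6, 24.6 and 24.4 CPM in input and 45.5, 39.6, 47.3, 48.6 and 45 in the coIP (0.91 ± 0.0868, adjusted p = 1.19e-06). Snx25 had 32.9, 24.8, 26.6, 24.9 and 23.8 CPM against 48.5, 56.2, 39.9, 46.4 and 48.9 (0.87 ± 0.112, adjusted p = 1.52e-05). HOPS and CORVET genes called higher were Vps18 (0.76), Vps8 (0.71), Vps11 (0.48), Vps16 (0.44) and Vps33b (0.33), whereas Vps41 of the same group was lower (-0.23).

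The coIP fold change moved with the length of the gene. Over the 79 members, Spearman's rho between log2 fold change and exon length was 0.556, and over the 8514 genes with a mean normalized count over 300 it was 0.584 (genes are not independent, and all points share the same 10 libraries). The 20 members called higher had exon lengths of 3471 to 24771 bp (median 6580) and the 30 called lower 1162 to 10426 bp (median 2975.5). With the length trend of each library removed and the lysate as a block, the rho was 0.122. Vps13a (0.04, adjusted p = 0.699) and Vps13b (0.06, adjusted p = 0.537) were then no longer called, and Vps13c and Vps13d stayed called at 0.26 and 0.27. Snx30 (0.62), Snx25 (0.84), Vps29 (-1.35), Vps26a (-0.67) and Snx3 (-0.58) were called as before, and Vps35 was then called lower as well (-0.43, adjusted p = 7.81e-05), as was Vps26b (-0.24, adjusted p = 0.00957). Library fragments, RNA integrity and transcript length were not measured separately here, so their part was not tested.

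**Figure D5:**
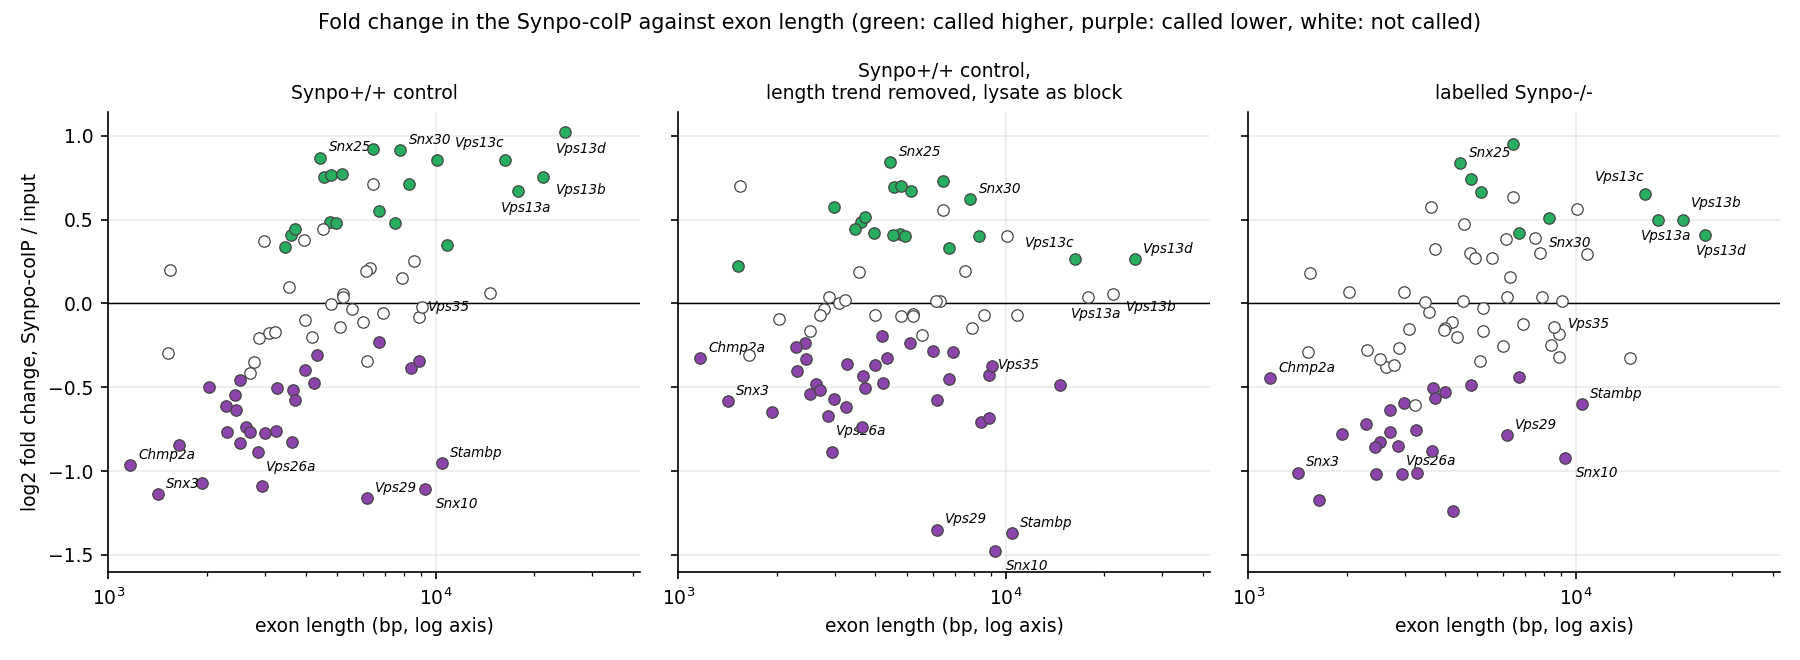
Log2 fold change of Synpo-coIP over input (y axis) against union exon length in bp (x axis, log) for the 79 members tested: Synpo+/+ control, the same with the length trend removed and the lysate as block, and the libraries labelled Synpo-/-. Green points were called higher, purple lower. The Vps13 genes, the longest of the set, lie at 0.67 to 1.02 in the first panel and at 0.04 to 0.27 in the second.

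After lesion the coIP gave a similar picture in Synpo+/+ cultures, from separate lysates. Here 21 of 79 members were higher and 35 lower, against 30.5% and 27.8% of all genes. Of the members called in control lysates, 18 were again higher and 27 again lower, which is 90% of the control list in each direction and 85.7% and 77.1% of the ECL list. Vps29 had 527, 615, 610, 586 and 602 CPM in input and 316, 193, 277, 169 and 300 in the coIP (-1.22), and Vps26a 260, 274, 255, 250 and 226 against 162, 95.0, 128, 86.1 and 124 (-1.07). Vps35 had 445, 491, 540, 501 and 464 CPM against 490, 366, 433, 368 and 379, and lay at the threshold (-0.24, adjusted p = 0.0496). Leaving out any 1 of 8 of these 10 libraries ended that call (adjusted p of 0.0575 to 0.117), and whether Vps35 differed from the control lysates was not tested. Vps35 was called lower in each fit with the length trend removed. Over the 18 alternatives its log2 fold change ran from -0.639 to -0.213. Vps26b (-0.21, adjusted p = 0.0984) and Stam2 (-0.17) were not called, Stam was lower (-0.55), and Hgs had 0.44 (adjusted p = 0.113), called with the lysate as a block (0.38, adjusted p = 0.0464), with the length trend removed (0.67, adjusted p = 0.0258) and without coIP replicate 5 (0.55, adjusted p = 0.044). The Vps13 genes had 0.84 (Vps13a), 0.99 (Vps13b), 0.91 (Vps13c) and 1.01 (Vps13d), Snx30 had 0.76 and Snx29 1.25. With the length trend removed and no lysate block, the Vps13 genes fell to 0.13, 0.20, 0.23 and 0.15 in the same order and were not called. With the lysate as a block as well, the setting given above for control lysates, Vps13c was called higher. Vps13a, Vps13b and Vps13d were not called under it. The members' median was -0.215 and that of all genes 0.0173.

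The same comparison in the libraries labelled Synpo-/- gives the recovery of these transcripts where the bait is labelled absent. There, 10 of 79 members were higher in the coIP and 25 lower, against 15% and 16.4% of all genes tested, from 2 lysates. Synpo had a log2 fold change of -0.0325 (adjusted p = 0.896). Vps26a had 196 and 221 CPM in input and 119 and 118 in the coIP (-0.85, adjusted p = 0.000763), and Vps29 593 and 667 against 401 and 347 (-0.79, adjusted p = 0.00152). Snx3 (-1.01), Snx10 (-0.92), Snx25 (0.84), Snx29 (0.95), Vps13c (0.65), Vps13b (0.50), Vps13a (0.50) and Vps13d (0.41) were called in the direction they had in Synpo+/+. With the length trend removed, the 4 Vps13 genes lost their call, at 0.22 (Vps13c), -0.01 (Vps13b), 0.04 (Vps13a) and -0.14 (Vps13d). All 10 genes higher here were also higher in the Synpo+/+ control coIP, and 23 of the 25 lower genes were also lower there. These are 50% and 76.7% of the Synpo+/+ lists. Vps35 (-0.18, adjusted p = 0.368), Vps26b (-0.34, adjusted p = 0.0969), Stam (-0.25), Stam2 (-0.26) and Hgs (0.07) were not called. Under 4 of 13 alternatives each, Vps35 (down to -0.452) and Stam (down to -0.526) were called lower, and Vps26b was under 2 of 13. With the length trend removed 4 were called higher and 26 lower, and the members' median was -0.162 against 0.0165 for all genes.

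Whether the recovery differed by labelled genotype was tested as an interaction, in which 0 of 79 members were called by edgeR or DESeq2 and 8 (10.1%) had an unadjusted p under 0.05 (7.33% of all genes tested, with 0% called). The smallest adjusted p was that of Snx30, which in Synpo-/- had 31.9 and 27.6 CPM in input against 35.3 and 39.5 after coIP. Its coIP effect differed by -0.57 (95% interval -0.909 to -0.222, adjusted p = 0.514). Vps13d had -0.56 (adjusted p = 0.516), and Vps29 had 0.43 (adjusted p = 0.641). The difference furthest from 0 was that of Snx11 (-0.72, adjusted p = 0.578). Depth differed between the labelled genotypes. Synpo-/- inputs had 42886994 to 47572131 counts and Synpo-/- coIP libraries 44727735 to 53682143. Synpo+/+ libraries of this experiment had at most 29014397, so depth and genotype cannot be told apart here. Lysate by lysate, 20 members (25.3% of 79) were higher and 32 (40.5%) lower in all 5 Synpo+/+ control pairs, where 30.7% and 29.6% of all genes tested were. In all 5 ECL pairs these were 23 (29.1%) and 36 (45.6%), against 30.9% and 31% of all genes. In both Synpo-/- pairs they were 23 (29.1%) and 42 (53.2%), against 41.4% and 36.6%, and counts over 2 pairs and over 5 pairs are not on the same footing.

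Among the partner genes, 19 of 44 were higher and 17 lower in the Synpo+/+ control coIP, against 29.6% and 25.5% of all genes tested. The sorting receptors carried by retromer were on the higher side, with Sorcs2 at 1.11, Igf2r at 1.07, Sorl1 at 0.84, Sorcs3 at 0.78 and Sort1 at 0.69, while the endosomal GTPase Rab7 (-1.06) and 9 Commd genes were lower. Where the bait is labelled absent, Sorcs2 (0.77), Sorcs3 (0.66), Igf2r (0.62) and Sorl1 (0.37) were called higher too and Rab7 lower (-1.01), and Sort1 had 0.30 (adjusted p = 0.118). In the ECL coIP 17 of 44 were higher and 17 lower, against 30.5% and 27.8% of all genes tested. In the libraries labelled Synpo-/- 10 of 45 were higher and 13 lower, against 15% and 16.4%. The relation of the partner genes to length was not tested separately.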

How the data were processed

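The values analysed were the deposited counts of reads per gene, not normalized, for 63 libraries and 55291 gene symbols. Per the labels and the methods of the study, reads were trimmed by the authors (cutadapt 3.5) and aligned with STAR 2.7.8a against mm10. Libraries had to reach 60% unique alignments, and featureCounts 2.0.1 assigned the reads to GENCODE exons regardless of strand. Gene identifiers, positions and exon lengths (the union of all annotated exons) were taken from the deposited GRCm38 annotation. No column of per-sample values was left unused. Counting errors were not modelled apart from the spread between libraries, since there are no molecular identifiers.

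Each comparison was fitted across all genes with edgeR 4.0.16 in R 4.3.3 (TMM, filterByExpr, quasi-likelihood test, Benjamini-Hochberg adjustment over all genes tested). The call required an adjusted p under 0.05 and, for CA3 and DG, normalized counts averaging over 300 (the limit set by the study). CPM were taken over effective library sizes of each experiment. Length and GC trends were removed, as alternatives, by lowess (span 0.3) over genes with a mean count over 50. The other alternatives were DESeq2 1.42.0, RLE size factors, no filter, no limit, a replicate block, all groups in 1 fit, and leaving out libraries. The fits were tested on simulated counts.

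Genes were named with values if they were among the 3 called members of smallest p per direction and role group, in the retromer core or ESCRT-0, called in both genotypes or both regions, or among the 10 highest per length. Members, role groups, marker lists and partner genes were chosen with earlier results of these data known. Of 130 pairs of libraries within groups, 0 had identical counts.

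Input and coIP of a lysate share its number, by the study's design. Their deviations from the group means correlated at 0.305 to 0.64 in 5 control pairs and 0.156 to 0.625 in 5 ECL pairs of Synpo+/+, and at 0.0868 in the 2 Synpo-/- pairs, which were matched by the lysate number in the titles. The main fits did not use this pairing. The lysate was an alternative block (60 members called in the control coIP against 50 without it).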

Additional observations from a re-analysis of the deposited data

Results flagged for a closer look

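In groups of 4 to 10 libraries, a library was picked out where its gap to the next value exceeded the Dixon limit. Of 270 combinations of gene and group examined, 19 were picked out, from 13 libraries, where chance alone would pick about 1 in 20. The values below are CPM, each with the next value of its group.

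Synpo+/+ DG ECL replicate 5, which also stands apart in Prox1, was highest in 3 genes: Vps29 (842, next 546), Vps35 (484, next 380) and Snx32 (57.7, next 41.0). Synpo-/- CA3 ECL replicate 6 was lowest in 3 genes: Vps29 (401, next 666), Vps26a (78.7, next 138) and Stam (103, next 126). Synpo+/+ DG control replicate 2 was lowest in Vps26a (64.4, next 97.9), Snx6 (122, next 149) and Snx10 (191, next 248). In the same group, replicate 1 was highest in Stam2 (38.0, next 30.5). Of the other regional libraries, Synpo-/- DG ECL replicate 1 was lowest in Stam (95.7, next 111) and Synpo-/- CA3 control replicate 2 highest in Snx32 (62.2, next 49.3).

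Among Synpo+/+ inputs, control replicate 5 was highest in Stam2 (42.4, next 35.2), control replicate 1 lowest in Chmp1a (169, next 190) and ECL replicate 2 highest in Chmp1b (79.8, next 68.9). Among Synpo+/+ coIP libraries, control replicate 3 was highest in Vps13a (78.2, next 59.5) and control replicate 2 lowest in Vps13d (91.6, next 116). ECL replicate 1 was lowest in Snx30 (38.9, next 47.1) and ECL replicate 2 highest in Vps25 (1.74, next 1.2).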

How the results depend on the processing

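Counts of members called in the coIP comparisons stayed within 1.5 times under every alternative run except single libraries of Synpo-/-, and the counts of 0 stayed 0 except where given here. With DESeq2 the lesion gave 9 in Synpo+/+ CA3 (5 in the report) and 10 in the input (6), the regions of Synpo+/+ gave 2 (1), the genotypes in control CA3 5 (0) and genotype by lesion in CA3 3 (0). Without a filter the lesion gave 14 in Synpo+/+ CA3 and 2 in Synpo-/- DG (5), the regions of Synpo+/+ 2, the genotypes in control CA3 5 and genotype by lesion in CA3 3. With all groups in 1 fit the lesion gave 0 in Synpo+/+ CA3, 21 in Synpo+/+ DG (12) and 1 in Synpo-/- DG, and the regions of Synpo+/+ 0. In Synpo-/- DG, RLE size factors gave 2 and the removed length trend 1. Regional numbers did not meet the rule for pairing (every correlation over 0.1). Nearest to it were the regions of Synpo-/-, at 0.0677 to 0.433 with the best match at the own number in 4 of 6, where the block gave 18 (17). With the number as a block the other counts that moved were 0 for the lesion in Synpo-/- DG, 2 in the input, 0 for the regions of Synpo+/+ and 15 for the genotypes in control CA3.

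Without single libraries the counts ran from 3 to 14 (lesion, Synpo+/+ DG), 0 to 6 (Synpo+/+ CA3), 1 to 9 (Synpo-/- DG), 0 to 9 (input), 0 to 1 (regions, Synpo+/+), 48 to 55 (coIP, Synpo+/+ control), 48 to 56 (coIP, Synpo+/+ ECL) and 21 to 37 (coIP, Synpo-/-, 21 without input replicate 2). The regions of Synpo-/- gave 11 without CA3 control replicate 1. In the coIP of Synpo-/-, fold changes of long genes changed sign: Vps13d -0.143 and Vps13b -0.0106 without the length trend, Vps13d -0.14 and Vps13b -0.0106 with the lysate block as well, Vps13a -0.0908 and Vps13d -0.0319 without length and GC trends, and Vps13a -0.0921 and Vps13d -0.0282 with the block. Of 3136 alternative values of single genes 2797 kept direction and side of the threshold. The cause was not tested.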
